A study of Arabidopsis thaliana with 12 samples.

Results

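The triple mutant rdr6-11 ein5-1 ski2-3 was compared with the double mutant ein5-1 ski2-3 to find which small RNA of the decay-deficient plant depends on RDR6 and which does not. The comparison used 6 of the 12 libraries of the study, 3 for each genotype, and all 30926 genes of the deposited count table, of which 7219 had enough counts to be tested. The plants were Arabidopsis thaliana, RNA under 200 nt was sequenced from the aerial tissue of 18-day-old plants, and the other libraries, 3 of rdr6-11 and 3 of wild-type Col-0, are given for reference. Both compared genotypes carry the ein5-1 and ski2-3 alleles, and by their labels they differ in rdr6-11 alone. Read length and strand are not recorded in the table, and each value adds up siRNAs, miRNAs and pieces of longer RNA.

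Uncapped RNA in the cytoplasm is normally removed from 5′ to 3′ by the exonuclease EIN5 (XRN4) and from 3′ to 5′ by the exosome, for which SKI2 is a helper helicase. RDR6 copies single-stranded RNA into double strands, which Dicer-like enzymes cut into secondary siRNAs. Its best known substrates are the TAS transcripts, non-coding RNAs that a miRNA cleaves before RDR6 copies them, and the siRNAs made from them act in trans on other mRNAs. miRNAs themselves are cut from hairpin precursors and need no such polymerase.

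The trigger miRNAs and their sites are shown because they tie the MIR genes to the TAS and coding loci compared below. The mature miRNAs below are from the RefSeq annotation of the TAIR10.1 assembly, written 5′ to 3′ as DNA with the seed (bases 2 to 8) in capitals. miR173-5p and miR828 are 22 nucleotides long, miR390a-5p and miR161.1 are 21, and no 2 of the 6 share a seed.
miR173-5p: tTCGCTTGcagagagaaatcac
miR390a-5p: aAGCTCAGgagggatagcgcc
miR828: tCTTGCTTaaatgagtattcca
miR161.1: tGAAAGTGactacatcggggt
miR393a-5p: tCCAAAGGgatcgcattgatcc
miR156a-5p: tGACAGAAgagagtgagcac

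The window with the fewest mismatches to each miRNA was then searched in the sense strand of loci that the results turn on, with capitals for the bases opposite the seed. G-U pairs were counted as mismatches.
TAS2 (miR173-5p, 2 mismatches, minus strand, chr2:16539991-16540012): gtgatttttctctcCAAGCGAa
TAS1B (miR173-5p, 3 mismatches, minus strand, chr1:18549660-18549681): gtgatttttctcaaCAAGCGAa
TAS3B (miR390a-5p, 4 mismatches, plus strand, chr5:20134458-20134478): gacgctatcttacCTGAGCTt
TAS4 (miR828, 1 mismatch, minus strand, chr3:9417809-9417830): tggaatactcatttGAGCAAGa
MYB75 (miR828, 4 mismatches, minus strand, chr1:21234130-21234151): tggaacactcatctGAGTAAGa
AT1G63080 (miR161.1, 3 mismatches, minus strand, chr1:23389789-23389809): atccaaatgtagtCACTTTCa
AFB2 (miR393a-5p, 2 mismatches, plus strand, chr3:9870237-9870258): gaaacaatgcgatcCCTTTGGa
SPL2 (miR156a-5p, 1 mismatch, minus strand, chr5:17360758-17360777): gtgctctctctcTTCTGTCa

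TAS1A and TAS1C also had 2 mismatches to miR173-5p. As a measure of how common such windows are, 0 of 4208 tested protein-coding genes matched miR173-5p with 3 mismatches or fewer. For miR828, 3 of those genes (0.0713%) had 4 mismatches or fewer, MYB75 among them, and for miR161.1 there were 10 (0.238%) with 3 or fewer. A match describes the letters and is not evidence of cleavage.

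Levels are TMM-normalised CPM, read counts relative to the size of the library, and 2-sided edgeR quasi-likelihood tests with Benjamini-Hochberg adjustment over all 7219 genes gave the adjusted p-values, with a gene called below 0.05. Replicates 1 and 2 of ein5-1 ski2-3 differed by about the sampling noise of their counts and were counted as 1 sample, and n is 3 for the triple mutant and 2 for ein5-1 ski2-3. Values per sample are listed in that order, replicates 1 to 3 of the triple mutant, then the sum of replicates 1 and 2 and replicate 3 of ein5-1 ski2-3. Values of rdr6-11 and Col-0 are means of 3 libraries. In all 2983 genes (41.3%) were called. In the triple mutant 1946 genes (27% of those tested) were lower and 1037 (14.4%) were higher than in ein5-1 ski2-3. That split depended on scaling and on the tool: RLE size factors gave 1546 lower and 1290 higher, library totals 3507 lower and 265 higher, and DESeq2, which also models the spread differently, 756 lower and 764 higher. Of the genes called lower, 284 fell at least 4-fold, 78 at least 16-fold and 34 at least 64-fold, whereas 257 (3.56%) rose at least 2-fold and 10 at least 4-fold. With library totals 523 genes fell at least 4-fold and 40 rose at least 2-fold, and without ein5-1 ski2-3 replicate 3 the 2-fold counts were 775 lower and 847 higher. For 4154 genes (57.5%) every sample of the triple mutant lay on the same side of every sample of ein5-1 ski2-3, so separate groups alone say little. Of the 78 genes, 71 were protein-coding, 6 were TAS loci and 1 was a MIR gene, and 0 were tRNA, rRNA, pseudogene or organelle genes. Conversely, 2756 genes (38.2%) had a 95% interval of the change that lay wholly within 2-fold, and these are called kept below. Small RNA of EIN5, SKI2 and RDR6 themselves reached 7 counts at most and cannot check the labels.

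**Figure D1:**
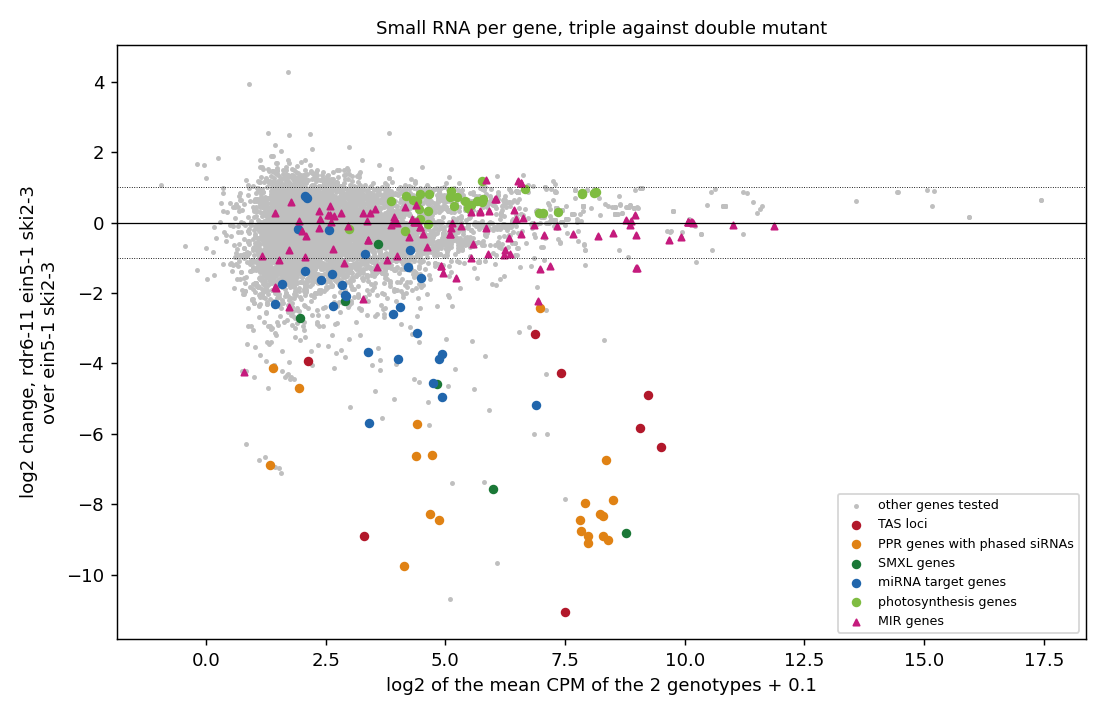
Each point is 1 of the 7219 tested genes, with the log2 of the mean CPM of the 2 genotypes (plus 0.1) on the x axis and the log2 change of the triple mutant over ein5-1 ski2-3 on the y axis. TAS and PPR genes and 5 of 6 SMXL genes lie below the dotted 2-fold lines. SMAX1 (-0.62), most MIR genes (triangles) and most photosynthesis genes lie between them.

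All 8 TAS loci fell in the triple mutant (8 of 8 tested, against 27% of all genes lower). Their median log2 change was -5.38 (-5.33 if TAS3B is set at its bound), against -0.21 over all genes tested. Their summed level was 108 to 121 CPM in the 3 triple-mutant libraries, against 5211 and 3927 CPM in ein5-1 ski2-3. It was 50.1 CPM on average in rdr6-11 and 4824 CPM in Col-0.

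TAS2 (AT2G39681, chromosome 2, 16539384 to 16540417), whose siRNAs target PPR genes, had 12.3, 17.9 and 21.6 CPM in the triple mutant and 1637 and 1221 CPM in ein5-1 ski2-3. The groups were far apart, and 1.21% of the ein5-1 ski2-3 level was left, a log2 change of -6.37 (SE 0.13, adjusted p = 1.49e-40). TAS1A held 16.5, 19 and 18.9 CPM in the triple mutant, against 1187 and 908 CPM in ein5-1 ski2-3. TAS1C, which overlaps the protein-coding gene AT2G39670, stood at 35.8, 42.5 and 38.6 CPM in the triple mutant and at 1340 and 999 CPM in ein5-1 ski2-3. The log2 changes of TAS1A, TAS1C and TAS1B were -5.85, -4.91 and -4.28. TAS1B overlaps the non-coding gene AT1G07613.

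TAS3 loci make the siRNAs that target ARF genes and are cleaved through miR390. TAS3A (AT3G17185) kept 29.6, 18.3 and 23.1 CPM in the triple mutant, against 236 and 188 CPM in ein5-1 ski2-3. That is 11.2% of the ein5-1 ski2-3 level, the largest share left at any TAS locus, with a log2 change of -3.17 (adjusted p = 1.24e-26). TAS3B had 0 counts in all 3 triple-mutant libraries and 22.3 and 16.6 CPM in ein5-1 ski2-3. With a floor of 3 counts over the group it was at least 53.7-fold lower. TAS3C fell by 3.92 on the log2 scale.

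TAS4 (AT3G25795, chromosome 3, 9417551 to 9418705), the source of siRNAs against MYB genes, gave 1 count in the 3 triple-mutant libraries together, where replicate 2 had 0.373 CPM and the others had 0. In ein5-1 ski2-3 it stood at 404 and 314 CPM, against 0.235 CPM in rdr6-11 and 35.4 CPM in Col-0. The ratio of ein5-1 ski2-3 over the triple mutant was 2955, with a counting interval of 530 to 116727. MYB75, an activator of anthocyanin synthesis that carries the miR828 site shown above, had 0.384, 0.373 and 0.758 CPM in the triple mutant against 29.0 and 20.7 CPM in ein5-1 ski2-3. Its log2 change was -5.55 (adjusted p = 8.29e-18), and Col-0 held 1.14 CPM.

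The MIR173 and MIR390 hairpin genes, which give the triggers of TAS1, TAS2 and TAS3, did not fall with their TAS loci. MIR173 had 154, 154 and 157 CPM in the triple mutant and 170 and 162 CPM in ein5-1 ski2-3, a log2 change of -0.10 with an interval of -0.31 to 0.11, which turned to 0.02 with RLE size factors, 0.04 scaled to MIR genes and 0.02 with DESeq2. It was kept within 2-fold while its targets TAS1 and TAS2 retained a few percent. MIR390a rose to 91.5, 77.6 and 76.2 CPM in the triple mutant, against 56.4 and 45.5 CPM in ein5-1 ski2-3 (log2 change 0.66, adjusted p = 3.17e-05), though not when scaled to library totals (0.22, adjusted p = 0.156). Its copy MIR390b had almost the same counts, and the reads of the 2 genes cannot be told apart. MIR828, the trigger gene of TAS4, had 0, 2 and 0 counts in the triple mutant and 17, 21 and 9 in replicates 1 to 3 of ein5-1 ski2-3. These are lower in every triple-mutant library, in the direction of TAS4, but too few to enter the test.

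**Figure D2:**
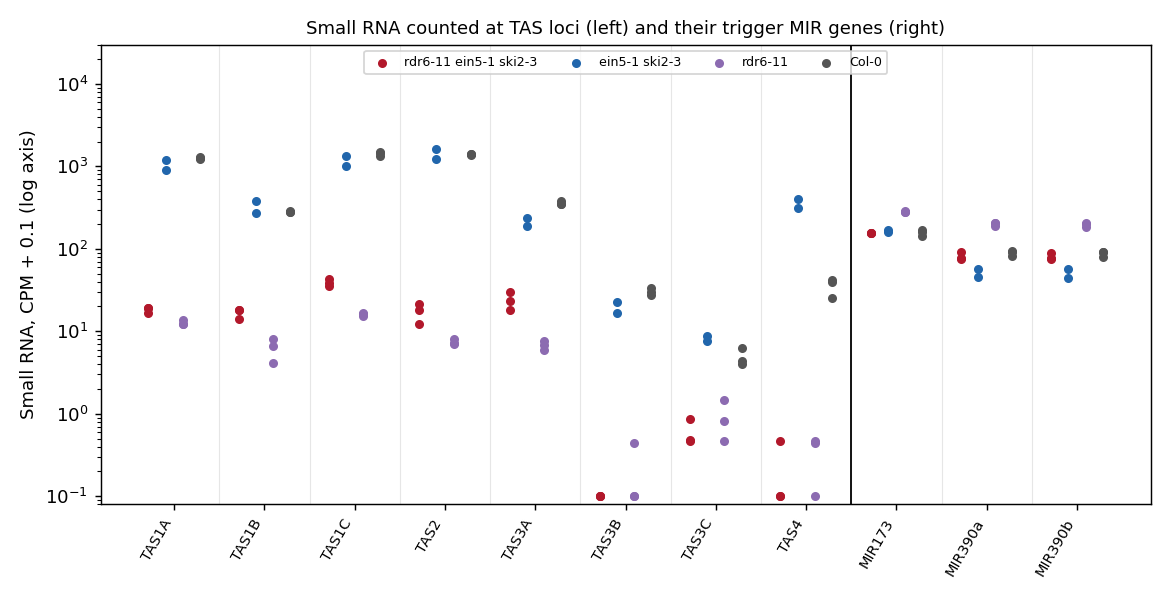
Small RNA in CPM plus 0.1 on a log axis for the 8 TAS loci and 3 trigger MIR genes, 1 point per sample and 1 colour per genotype. At the TAS loci the triple mutant and rdr6-11 lie low and ein5-1 ski2-3 and Col-0 lie high, whereas MIR173 lies between 142 and 289 CPM in every sample.

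Protein-coding genes whose transcripts are cut by miRNAs or TAS siRNAs lost small RNA to different degrees. Among all 4208 protein-coding genes tested, 1079 (25.6%) were lower, 620 (14.7%) were higher and 1274 (30.3%) were kept, and the median log2 change was -0.05. Genes with counts in ein5-1 ski2-3 alone could still be tested, so the counts of tested list members below partly follow from which members could enter.

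The PPR genes of chromosome 1, which encode pentatricopeptide repeat proteins of organelle RNA processing and are cut through miR161 and TAS2 siRNAs, had the lowest median change of the lists. Of 22 listed genes 21 were tested, and 21 were lower, with a median log2 change of -8.26 (-7.96 with RPF1 set at its bound). Their sum was 54.6 to 68.2 CPM in the triple mutant, against 7805 and 5782 CPM in ein5-1 ski2-3, 151 CPM in rdr6-11 and 3349 CPM in Col-0. Copies of this family are near-identical, so reads may be shared among them, and each value is uncertain as to its copy.

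AT1G63080 (chromosome 1, 23387574 to 23390838) had 1.54, 1.49 and 0.758 CPM in the triple mutant and 775 and 577 CPM in ein5-1 ski2-3, a log2 change of -9.02 (SE 0.20). RPF6 held 3.08, 2.61 and 3.41 CPM in the triple mutant, against 821 and 623 CPM in ein5-1 ski2-3. RPF1 gave 0 counts in the triple mutant, at least 96.4-fold below the 40.0 and 29.7 CPM of ein5-1 ski2-3. Most of these genes thus had about 1% of their ein5-1 ski2-3 level or less. AT1G63630, a TPR-like gene outside the list that overlaps AT1G63615, also gave 0 counts and was at least 183-fold lower, against 71.3 and 65.2 CPM in ein5-1 ski2-3. AT1G63070, AT1G63150, AT1G62914, AT1G63330, AT1G63320, AT1G62590 and AT1G62910 changed by -9.10 to -8.34 on the log2 scale. AT1G62860 kept the most, with 43.4, 38.8 and 35.6 CPM in the triple mutant and 234 and 189 CPM in ein5-1 ski2-3 (log2 change -2.43), and it also stood at 116 CPM in rdr6-11. The trigger gene MIR161 did not differ, with 507, 474 and 449 CPM in the triple mutant and 509 and 405 CPM in ein5-1 ski2-3 (log2 change 0.06, adjusted p = 0.655; -0.39 scaled to library totals).

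SMXL genes encode repressors related to strigolactone and karrikin signalling. Of 8 members 6 were tested and 6 were lower, with a median log2 change of -3.64, and of -2.54 when all 8 entered without a filter. SMXL5 (AT5G57130, chromosome 5, 23144947 to 23149615), a regulator of phloem formation, had 1.92, 1.49 and 2.27 CPM in the triple mutant and 964 and 772 CPM in ein5-1 ski2-3. The triple-mutant values lay at the level of rdr6-11 (1.67 CPM) and Col-0 (1.06 CPM), and the log2 change was -8.81 (SE 0.18, adjusted p = 1.49e-40). SMXL4, its close relative, stood at 0, 1.49 and 0.379 CPM in the triple mutant, against 141 and 112 CPM in ein5-1 ski2-3. SMXL7, SMXL3 and SMXL2 fell with log2 changes of -4.57, -2.70 and -2.22. SMAX1 had a log2 change of -0.62 (adjusted p = 0.0228), and its call was lost without ein5-1 ski2-3 replicate 2 or 3 or replicates 1 and 2 together, rdr6-11 replicate 2, or triple-mutant replicate 1 or 2, and also with RLE or MIR scaling, with only the 2 genotypes and with DESeq2.

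Cytokinin response factors, AP2-type transcription factors, ranged widely: 4 of 6 were tested and 4 were lower. CRF2 (AT4G23750) had 2.31, 1.12 and 1.14 CPM in the triple mutant and 409 and 311 CPM in ein5-1 ski2-3 (log2 change -7.86). CRF4, which overlaps AT4G07925, had 0 counts in the triple mutant and was at least 11.8-fold lower than in ein5-1 ski2-3, and CRF1 fell by 2.91. CRF6 differed, with 4.23, 5.59 and 7.96 CPM in the triple mutant, 12.7 and 8.18 CPM in ein5-1 ski2-3 and 0 in Col-0. Its log2 change of -0.88 was not called without triple-mutant replicate 1, without ein5-1 ski2-3 replicates 1 and 2, scaled to MIR genes or with DESeq2. GRF5 (AT3G13960), a growth-regulating factor of leaf cell division, gave 1 count in the triple mutant, where replicate 2 had 0.373 CPM, and 153 and 116 CPM in ein5-1 ski2-3. That ratio of 1110 has a counting interval of 199 to 43881.

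**Figure D3:**
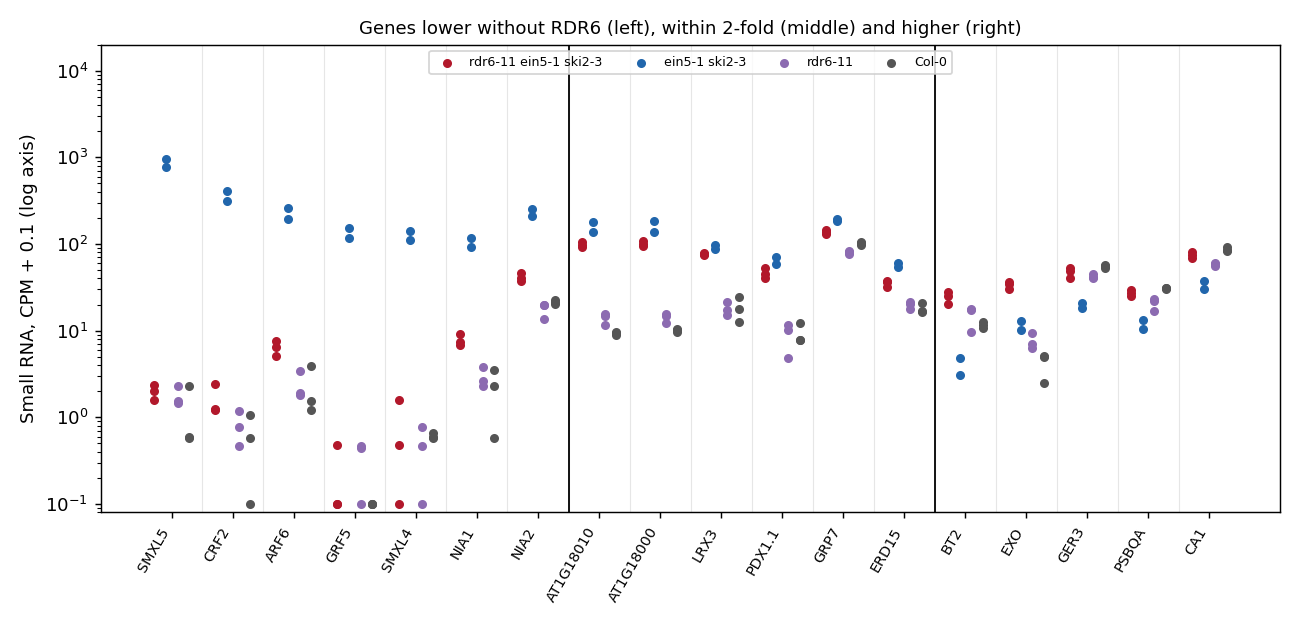
Small RNA in CPM plus 0.1 on a log axis for 18 protein-coding genes in the 4 genotypes, 1 point per sample. In the left panel ein5-1 ski2-3 stands alone at a high level, in the middle panel the triple mutant lies close to ein5-1 ski2-3 and above rdr6-11 and Col-0, and in the right panel the triple mutant lies above ein5-1 ski2-3.

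Among miRNA target genes, 28 of 76 listed could be tested, 24 were lower and 0 were higher, with a median log2 change of -2.06. With only the 2 genotypes, without ein5-1 ski2-3 replicate 3 or without rdr6-11 replicate 2, the list had 2 higher. Without the filter the median over the 74 with a row in the table was -0.99. ARF6, an auxin response factor cut by miR167, had 5.0, 6.34 and 7.58 CPM in the triple mutant and 263 and 196 CPM in ein5-1 ski2-3 (log2 change -5.18). ARF10, cut by miR160, gave 3 counts in the triple mutant, and the ratio of ein5-1 ski2-3 over it was 58.7, with a counting interval of 19.8 to 286. ARF8, cut by miR167, had a log2 change of -3.69. SPL2, a squamosa-promoter-binding factor with the miR156 site shown above, held 1.15, 2.24 and 2.27 CPM in the triple mutant and 69.8 and 48.3 CPM in ein5-1 ski2-3 (log2 change -4.96), and Col-0 stood at 47.9 CPM. The miR166 targets of the HD-ZIP III family, which pattern leaves and veins, lay closer together. ATHB8, PHB, PHV and REV fell with log2 changes of -4.56, -3.89, -3.88 and -3.73, and the triple mutant kept 2.15 CPM of ATHB8 against 51 CPM in ein5-1 ski2-3.

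Other targets kept more of their small RNA. PHO2, the phosphate-homeostasis gene cut by miR399, kept 34.0% and APS1, an ATP sulfurylase cut by miR395, 58.6% of the ein5-1 ski2-3 level. The call of APS1 (log2 change -0.77) was lost without ein5-1 ski2-3 replicates 1 and 2 and with DESeq2. Of the superoxide dismutase genes cut by miR398, CSD1 had 4.61, 5.97 and 4.55 CPM in the triple mutant and 2.40 and 4.36 CPM in ein5-1 ski2-3. CSD2 had 4.23, 5.97 and 4.93 CPM in the triple mutant and 2.68 and 3.54 CPM in ein5-1 ski2-3. The 2 genes had adjusted p-values of 0.0988 and 0.0939. They were picked after their values were seen, as the highest of the list.

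The auxin receptor genes, which miR393 cuts, lost most but not all of their small RNA: 3 of 4 were tested and 3 were lower. AFB2 had 7.30, 6.71 and 6.82 CPM in the triple mutant and 40.3 and 33.5 CPM in ein5-1 ski2-3, a log2 change of -2.42, and Col-0 stood at 5.94 CPM. AFB3, which overlaps AT1G12810, fell by 2.83. TIR1 fell by 1.18, a call lost without ein5-1 ski2-3 replicates 1 and 2 and with DESeq2. MIR393b changed by -0.33 (adjusted p = 0.0338) and was kept within 2-fold. Its call was lost with RLE or MIR scaling, without rRNA, tRNA and organelle genes, with only the 2 genotypes and with DESeq2. It was also lost without ein5-1 ski2-3 replicate 1, rdr6-11 replicate 2 or triple-mutant replicate 2 or 3, and without ein5-1 ski2-3 replicates 1 and 2 the change turned to 0.14.

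The TAS3 siRNA targets ARF4, ARF3 and ARF2 fell with log2 changes of -2.34, -2.12 and -1.09. ARF3 held 3.08, 2.98 and 3.41 CPM in the triple mutant, against 14.5 and 12.8 CPM in ein5-1 ski2-3 and 14.5 CPM in Col-0. These 3 were the tested members of 7 listed targets of TAS siRNAs. Of 3 tested small RNA pathway genes among 17 listed, AGO1, AGO2 and DCL1 fell with log2 changes of -2.39, -1.75 and -1.46. AGO1 and DCL1, themselves under miRNA control, had 5.30 and 3.29 CPM in the triple mutant, against 27.5 and 8.95 CPM in ein5-1 ski2-3. DCL1 overlaps 3 other loci, and the AGO2 samples overlapped, with 11 counts in the triple mutant and 52 in ein5-1 ski2-3.

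NB-LRR genes, which encode intracellular immune receptors, split into members that fell steeply and members that did not. Of 13 tested of 20 listed, 7 were lower, 6 of them by at least 2-fold, and 0 were higher, with a median log2 change of -0.47. Within 2-fold 6 were kept, and SNC1 counted both as lower and as kept. AT5G38850 had 2.69, 2.98 and 3.03 CPM in the triple mutant and 126 and 108 CPM in ein5-1 ski2-3 (log2 change -5.32). AT5G43740 fell by 4.65 and its neighbour AT5G43730 by 4.45, both of which overlap other loci. SNC1 and RPP4 stayed within 2-fold at -0.46 and -0.44, with adjusted p-values of 0.0300 and 0.0573, and the call of SNC1 was lost without ein5-1 ski2-3 replicate 2 or 3 or replicates 1 and 2 together, rdr6-11 replicate 2, or triple-mutant replicate 1 or 2. It was also lost with RLE or MIR scaling, without rRNA, tRNA and organelle genes, with only the 2 genotypes and with DESeq2. The highest member stood at 0.22.

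Nitrate reductases make nitrite from nitrate, the first step of nitrate assimilation. NIA1 had 7.30, 6.71 and 9.09 CPM in the triple mutant and 119 and 92.2 CPM in ein5-1 ski2-3 (log2 change -3.78, SE 0.18, adjusted p = 1.26e-24). NIA2 had 46.1, 37.3 and 40.9 CPM in the triple mutant and 253 and 210 CPM in ein5-1 ski2-3 (log2 change -2.48). Neither returned to wild type: the triple mutant still exceeded Col-0 by 1.91 for NIA1 (adjusted p = 0.000245) and by 0.97 for NIA2 (adjusted p = 6.27e-06) on the log2 scale, at 2.03 and 21.2 CPM in Col-0. Of all genes tested 8.8% were higher and 9.52% lower in the triple mutant than in Col-0. The later genes of the same pathway did not fall. GLN2, plastid glutamine synthetase, and GLU1, ferredoxin-dependent glutamate synthase, were higher by 0.64 and 0.86, a call that GLN2 lost when scaled to library totals (0.20, adjusted p = 0.300).

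Outside the lists, hormone and vascular genes were among those that fell at least 16-fold; they were picked after their values were seen. BRI1, the brassinosteroid receptor, had 11.1, 14.2 and 14.4 CPM in the triple mutant and 293 and 227 CPM in ein5-1 ski2-3 (log2 change -4.30). PXY, a receptor kinase of vascular stem cells, had a log2 change of -4.16, and the GH3 auxin-conjugating genes DFL1 and WES1 had -4.73 and -5.02. The jasmonate lipoxygenase gene LOX3 stood at -4.02 and NPY5, of auxin-dependent organ formation, at -6.0. The uncharacterised gene AT2G39870 had 3.84, 5.22 and 3.79 CPM in the triple mutant against 311 and 240 CPM in ein5-1 ski2-3. All of these had at most 7.72 CPM in Col-0.

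**Figure D4:**
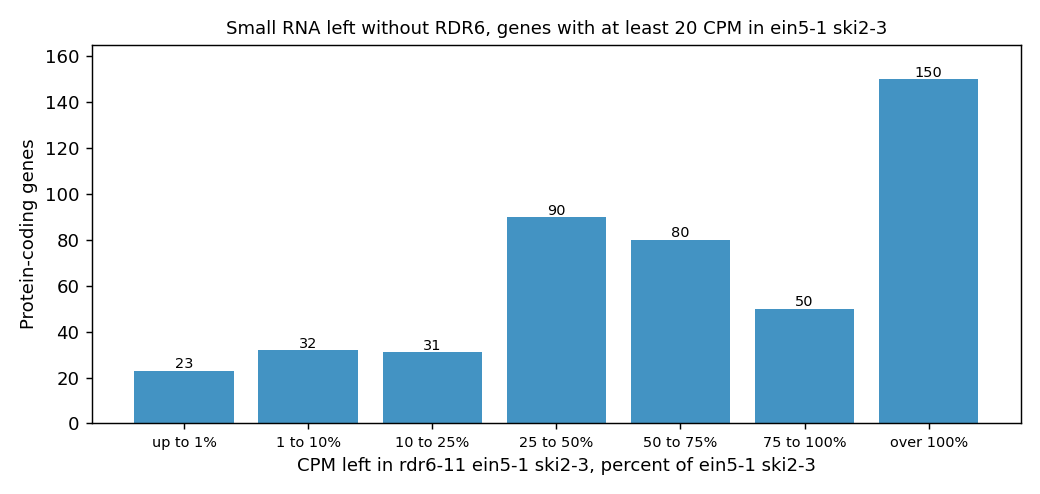
Bars count the 456 protein-coding genes with at least 20 CPM in ein5-1 ski2-3 by the percent of that CPM left in the triple mutant. The groups run from 23 genes with up to 1% left to 150 with more than 100%.

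The share left in the triple mutant was graded. Of the 456 protein-coding genes with a mean of at least 20 CPM in ein5-1 ski2-3, 23 kept up to 1% of that level in the triple mutant, 32 kept 1 to 10%, 31 kept 10 to 25% and 90 kept 25 to 50%. A further 80 kept 50 to 75%, 50 kept 75 to 100%, and 150 were above their ein5-1 ski2-3 level. The lowest groups hold 4 genes, AT3G44570 and AT3G44580 up to 1% and AT2G14000 and AT3G30820 from 1 to 10%, that rdr6-11 alone had at full level (203, 134, 40.3 and 43.8 CPM). The median gene kept 64.3%, with quartiles of 34.6% and 119%. These shares rest on TMM scaling alone, and the genes were chosen by their level in ein5-1 ski2-3. With library totals the median log2 change of all tested protein-coding genes was -0.50, against -0.05 with TMM. Among all 4208 protein-coding genes tested, gene structure differed between those that fell steeply and those kept. Of the 258 protein-coding genes that fell at least 4-fold 31.4% had a single exon, against 13.7% of the 1274 kept genes and 16.5% of all tested. Leaving out the PPR list gave 30.7%, 13.7% and 16.4%. Of the 620 protein-coding genes called higher 11.3% had a single exon. The median exon number was 2 for the genes that fell 4-fold or more and 5 for the kept ones. Without the PPR list these medians were 3 and 5, against 4 for all tested genes. Transcript length, with the PPR list included, was similar, with medians of 1916 and 1952 nt (the longest annotated transcript of each gene). These are descriptions, and no test was made of them.

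For some genes small RNA that the double mutant had in excess of Col-0 remained in part without RDR6. The genes named here are those with the highest ein5-1 ski2-3 level among kept protein-coding genes that were also higher in ein5-1 ski2-3 than in Col-0 (30.5% of all genes tested were). Several still passed the test as lower, but by less than 2-fold, and where the excess over Col-0 was itself under 2-fold, kept does not show that the excess remained. AT1G18010, a major facilitator transporter gene, had 105, 97.7 and 93.2 CPM in the triple mutant and 179 and 137 CPM in ein5-1 ski2-3, against 13.8 CPM in rdr6-11 and 9.22 CPM in Col-0. It kept 62.6% of the double-mutant level and exceeded Col-0 by 3.41 on the log2 scale (adjusted p = 3.56e-23). Its neighbour AT1G18000 had nearly the same values, and their reads may be shared. The call of each as lower than in ein5-1 ski2-3 (-0.69 and -0.68) was lost without ein5-1 ski2-3 replicates 1 and 2.

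LRX3, an extracellular leucine-rich repeat extensin of the cell wall, had 78.4, 75.3 and 76.5 CPM in the triple mutant and 98.0 and 87.5 CPM in ein5-1 ski2-3 (log2 change -0.28, adjusted p = 0.0712). Col-0 was far below both at 18.1 CPM, and the triple mutant exceeded it by 2.1. PDX1.1, of vitamin B6 synthesis, kept 70.9% and exceeded Col-0 by 2.33, and the stress-response gene ERD15 kept 61.6% and exceeded Col-0 by 0.96. GRP7, a clock-regulated RNA-binding protein gene, had 132, 144 and 136 CPM in the triple mutant and 193 and 184 CPM in ein5-1 ski2-3, with 102 CPM in Col-0. The calls of PDX1.1 and GRP7 as lower were lost without ein5-1 ski2-3 replicates 1 and 2 or rdr6-11 replicate 2, scaled to MIR genes and with only the 2 genotypes, and that of PDX1.1 also with DESeq2. LpxC2 and LpxC3 are near-identical copies and kept 60.6% and 60.8% of their double-mutant level. AT5G01350, AT2G01008, LOX2 and LHB1B1 were kept at -0.60, -0.59, -0.38 and -0.11, of which LHB1B1 turned to 0.0083 with RLE size factors and 0.0196 scaled to MIR genes. In these 4 genes the triple mutant did not pass the test against Col-0, with log2 changes of -0.30, 0.17, -0.04 and 0.26 and adjusted p-values of 0.0944, 0.343, 0.882 and 0.182. The comparison with Col-0 was made with TMM scaling only. The calls as lower than in ein5-1 ski2-3 were lost without ein5-1 ski2-3 replicate 3 for AT5G01350 and LOX2. LOX2 also lost its call without replicates 1 and 2, rdr6-11 replicate 2 or triple-mutant replicate 1, with RLE or MIR scaling, with only the 2 genotypes and with DESeq2. EBF1, an F-box gene of ethylene signalling, kept 61.5%, with 30.3 ± 1.12 CPM in the triple mutant (SD, n = 3), 49.3 ± 5.69 CPM in ein5-1 ski2-3 (SD, n = 2) and 12.7 ± 1.89 CPM in Col-0, and its call (-0.72) was lost without ein5-1 ski2-3 replicates 1 and 2.

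**Figure D5:**
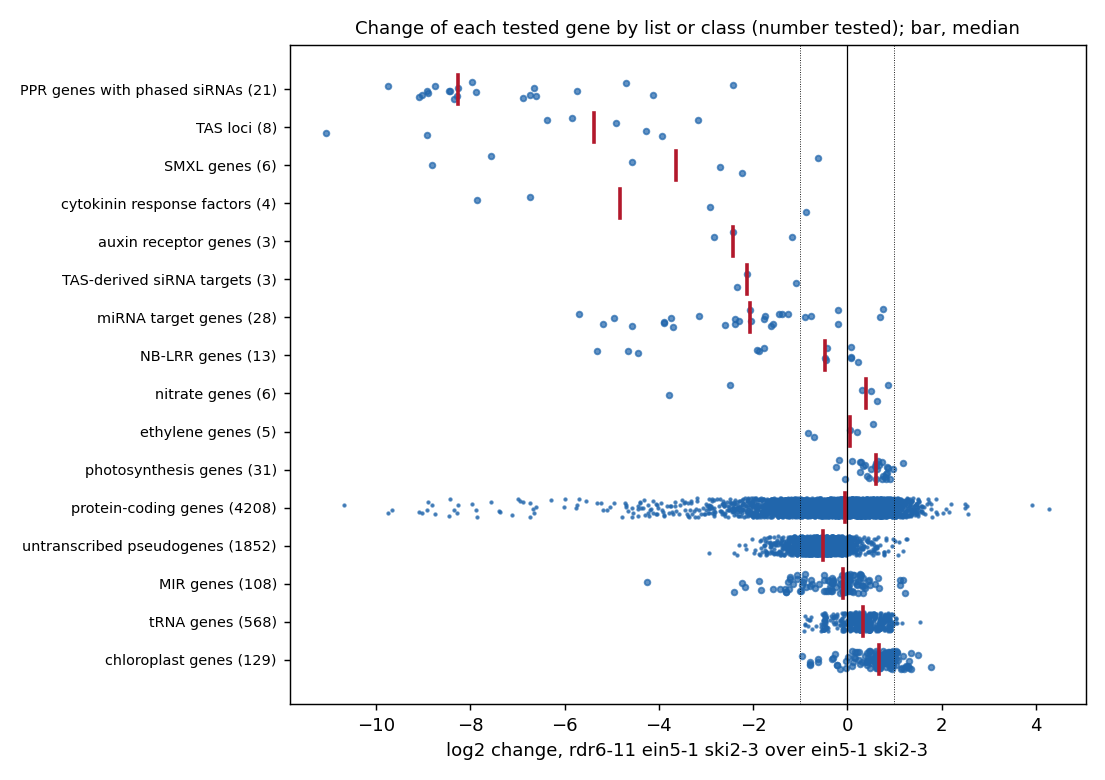
Log2 change of the triple mutant over ein5-1 ski2-3 for every tested gene of 11 lists and 5 classes (1 point per gene; bar, median; dotted lines, 2-fold). PPR and TAS genes and 5 of 6 SMXL genes lie to the left of the 2-fold lines. NB-LRR and nitrate genes are split, and MIR, tRNA and chloroplast genes centre between the 2-fold lines. The row of untranscribed pseudogenes holds genes annotated as pseudogenes without a label as transcribed.

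Small RNA of MIR genes was mostly kept. Of 108 tested, 36 were lower (33.3%, against 27% of all genes) and 8 higher (7.41%, against 14.4%). Within 2-fold 71 were kept (65.7%, against 38.2%). A narrow interval needs enough counts, so these 2 shares also differ by count level. With a minimum count of 30, 93 MIR genes and 3002 of all genes were tested, and 1705 of those 3002 were kept. The median log2 change of MIR genes in the main fit was -0.10. It turned to 0.02 with RLE size factors and was -0.55 scaled to library totals. The MIR share was 1.92% to 2.18% of counts in the triple mutant and 3.69%, 3.67% and 2.43% in replicates 1 to 3 of ein5-1 ski2-3. Without ein5-1 ski2-3 replicates 1 and 2 the split became 21 lower and 28 higher, and without rdr6-11 replicate 2 it was 26 and 15. MIR159b, the most abundant, had 3856, 3404 and 3502 CPM in the triple mutant and 4781 and 2902 CPM in ein5-1 ski2-3. The groups overlapped, and its log2 change of -0.10 was 0.50 without replicates 1 and 2 (adjusted p = 4e-07). MIR166a was at 0.00 (-0.44 scaled to library totals).

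A few families moved further, and they were picked after their values were seen. MIR408, whose miRNA acts in the copper response, had 48.4, 34.7 and 45.1 CPM in the triple mutant and 206 and 195 CPM in ein5-1 ski2-3 (log2 change -2.23, adjusted p = 4.46e-22), and Col-0 held 54.4 CPM. MIR398b, of the same response, had 303, 310 and 272 CPM in the triple mutant and 804 and 642 CPM in ein5-1 ski2-3 (-1.30), and MIR398a changed by -1.23. MIR408 overlaps AT2G47020 and MIR398b overlaps AT5G14550. MIR156a and MIR156c, whose miRNA acts on SPL genes, changed by -1.23 and -1.32. MIR169f went the other way, with 135, 112 and 134 CPM in the triple mutant and 57.7 and 54.5 CPM in ein5-1 ski2-3 (log2 change 1.17). Its copies MIR169d, MIR169e and MIR169g moved by 1.11 to 1.22 and may share its reads. MIR845a changed by -1.57 and still exceeded Col-0 by 3.97, at 19.1 CPM in the triple mutant, 55.8 CPM in ein5-1 ski2-3 and 1.19 CPM in Col-0. The 1 MIR gene that fell over 16-fold, MIR826a, had 0.124 CPM in the triple mutant and 3.12 CPM in ein5-1 ski2-3.

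Genes annotated as pseudogenes, without a label as transcribed, had 671 lower (36.2%) and 15 higher (0.81%) of 1852 tested. Of all genes tested 27% were lower and 14.4% higher. The median of these pseudogenes was -0.52, 775 were kept and none fell 16-fold or more. The number lower depended on the processing. It was 1410 scaled to library totals, 468 with RLE size factors, 222 scaled to MIR genes and 152 with DESeq2. Small RNA of the photosynthetic machinery was higher in the triple mutant in the main scaling. Of 31 photosynthesis genes 25 were higher (80.6%, against 14.4% of all genes), 0 were lower and the median was 0.61. Scaled to library totals, 7 were higher, 3 were lower and the median was 0.17. CA1, a carbonic anhydrase gene, had 74.2, 80.6 and 69.7 CPM in the triple mutant and 29.8 and 37.1 CPM in ein5-1 ski2-3 (log2 change 1.19). RBCS1A, of the Rubisco small subunit and with near-identical copies, had 340, 379 and 369 CPM in the triple mutant and 182 and 218 CPM in ein5-1 ski2-3, with 419 CPM in Col-0 (log2 change 0.87). Of 129 chloroplast genes 97 were higher (75.2%) and 8 lower (6.2%), which became 46 and 16 scaled to library totals. Of 568 tRNA genes 239 were higher (42.1%) and 57 lower (10%), a split that was 46 and 146 scaled to library totals. The share of all counts in protein-coding genes was 7.41% to 7.51% in the triple mutant and 10.7% to 11.7% in ein5-1 ski2-3. Chloroplast genes held 21.5% to 21.8% in the triple mutant and 17.6% to 17.8% in ein5-1 ski2-3, and tRNA genes 8.44% to 8.78% in the triple mutant and 8.79% to 9.24% in ein5-1 ski2-3. The part of these shares in the calls was not tested.

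The largest rise among genes of at least 20 CPM was that of BT2, a BTB and TAZ domain protein gene of nitrate and sugar responses. It had 25, 27.6 and 20.1 CPM in the triple mutant and 4.79 and 3.00 CPM in ein5-1 ski2-3 (log2 change 2.54, SE 0.24, adjusted p = 1.9e-12), and the triple mutant also exceeded Col-0 (11.5 CPM) by 1.06. EXO, a brassinosteroid-responsive cell expansion gene, had 29.99, 36.2 and 34.9 CPM in the triple mutant and 10.2 and 12.8 CPM in ein5-1 ski2-3 (log2 change 1.59), above the 7.42 CPM of rdr6-11 and 4.08 CPM of Col-0. The other genes with the largest rises, GER3, PSBQA, AT5G66530, AT1G29660, GAMMA-TIP, AT1G11860 and PSBX, changed by 1.07 to 1.3. GER3, for one, had 53.1, 49.2 and 40.2 CPM in the triple mutant and 18.2 and 20.7 CPM in ein5-1 ski2-3, with 55.1 CPM in Col-0.

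Remaining lists had few tested members. Of 5 ethylene genes 2 were lower and 1 was higher, of 4 circadian clock genes 2 were lower, of 4 wax synthesis genes 1 was lower and 1 higher, and of 3 mRNA decay genes 1 was lower and 1 higher. Over all genes tested 27% were lower and 14.4% higher. Scaled to MIR genes, 1 ethylene gene and 0 clock, wax or decay genes were lower. Of 2 PAI genes, known for siRNA-directed silencing, 0 were called. As tissue markers, 1 of 2 tested root genes was lower, and 0 were with RLE or MIR scaling. Of 7 floral organ genes 0 had enough counts to be tested, while the leaf markers RBCS1A and CA1 had high counts in every library. Small RNA of a gene is not its mRNA level, so these say only where small RNA was counted. Whether less small RNA of a gene reflects fewer cells that make it or less in each cell cannot be told apart in whole tissue.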

How the data were processed

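RNA under 200 nt was sequenced from 12 libraries, and the authors deposited whole-number read counts per gene. Per the submitters' processing notes, the build was TAIR10 and the tools included Bowtie2, Bowtie, CASAVA 1.8.2 and DESeq. The treatment of multiply matching reads is not given in the sources used here. The authors' deposited signal means, fold ratios and p-values were not used. Library totals lay between 2358724 and 2909767 counts. Counting intervals of ratios and floors cover counting error only. Intervals of the change, which define the kept genes, come from the fit described below and also include the scatter between samples.

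Counts were fitted in R 4.3.3 with edgeR 4.0.16: filterByExpr (minimum count 10, minimum total 15), TMM scaling and quasi-likelihood F tests, in 1 model with 11 samples of all 4 genotypes. Replicates 1 and 2 of ein5-1 ski2-3 were summed because their counts differed by about the sampling noise, for which a mean chi-square of 1 is expected. It was 1.04 over all 10652 genes, against 1.15 to 3.37 in every other replicate pair of the 4 genotypes. Over 7365 protein-coding genes it was 1.02, where Col-0 replicates 2 and 3 had 1.01 but 1.33 over all genes and stayed apart. DESeq2 1.42.0 was an alternative. The fit was also run on simulated counts with equal numbers of rises and falls, which does not check the scaling of these data. Nothing says that libraries came from separate plants, so p-values reflect only the scatter of these samples, possibly technical. No pairing of libraries by replicate number was seen (18 pairs, residual correlation -0.11 to 0.05), though a weak one could be missed.

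Genes named are the 12 largest falls and 10 largest rises among called protein-coding genes of at least 20 CPM, the 12 most abundant kept genes above Col-0, and the most abundant members of each list; others are marked. For the ethylene, clock, wax, decay, root and PAI lists counts stand in for most members. The members and lists were chosen with earlier results of these data known. Names and sequences are from RefSeq on TAIR10.1, where 30403 of 30926 gene IDs matched; the table itself holds no coordinates.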

Additional observations from a re-analysis of the deposited data

How the results depend on the processing

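All counts of calls depended on the processing, falls of 4-fold or more included, while the direction of the TAS, PPR and SMXL lists did not. The median log2 change of all genes was -0.21, and it was -0.65 with library totals, -0.09 with RLE size factors, -0.02 scaled to MIR genes or with only the 2 genotypes fitted and without rdr6-11 replicate 2. It was 0.01 when ein5-1 ski2-3 lacked replicate 3 and 0.02 when it lacked replicates 1 and 2. The share of lower among called genes was 65.2%, and 93% with library totals, 54.5% with RLE, 49.7% with MIR scaling and with DESeq2, 48.7% with only the 2 genotypes, 44% without ein5-1 ski2-3 replicate 3, 48% without replicates 1 and 2 and 47.7% without rdr6-11 replicate 2. Genes called lower numbered 1946, and 3507 with library totals, 1047 scaled to MIR genes, 1216 with a minimum count of 30 (3002 genes tested) and 756 with DESeq2. Genes called higher numbered 1037, and 265 with library totals and 665 with the minimum of 30. Lower by 2-fold or more were 1157, and 2311, 757, 491 and 556 in the order library totals, MIR scaling, minimum of 30 and DESeq2. Lower by 4-fold or more were 284, and 523 with library totals, 545 without a filter and 145 with the minimum of 30. Lower by 16-fold or more were 78, and 136 without a filter, where 29938 genes were tested. Higher by 2-fold or more were 257, and 444 with RLE, 40 with library totals, 486 scaled to MIR genes, 48 with the minimum of 30 and 560 with only the 2 genotypes. Kept genes numbered 2756, and 1705 with the minimum of 30, 1632 with DESeq2 and 528 with an interval bound of 0.58.

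Leaving out 1 library at a time gave 1234 to 1956 lower, 830 to 1568 higher, 775 to 1161 lower and 247 to 847 higher by 2-fold, 231 to 327 lower by 4-fold, 69 to 78 lower by 16-fold and 2238 to 2760 kept. Without ein5-1 ski2-3 replicates 1 and 2 together, 821 were lower, 643 lower by 2-fold, 403 higher by 2-fold and 68 lower by 16-fold. The extremes of 1234, 1568 and 847 came without ein5-1 ski2-3 replicate 3, and 590 were higher by 2-fold without rdr6-11 replicate 2. Medians ranged from -5.43 to -5.18 for TAS loci (-4.97 without both ein5-1 ski2-3 replicates 1 and 2), from -8.32 to -7.89 for PPR genes (-7.67), from -3.98 to -3.45 for SMXL genes (-3.20), from -2.20 to -1.82 for miRNA targets (-1.74) and from 0.57 to 0.95 for photosynthesis genes. With library totals these medians were -5.82, -8.69, -4.08, -2.51 and 0.17. The TAS median was -5.22 scaled to MIR genes, -5.89 with the minimum of 30 and -5.19 with only the 2 genotypes. SMXL genes had -2.54 without a filter and -4.62 with the minimum of 30, miRNA targets -0.99 and -2.65, and photosynthesis genes 0.79 with only the 2 genotypes. TAS, PPR and SMXL lists had 0 members called higher under every setting tried. Only the triple mutant against ein5-1 ski2-3 was refitted in these settings. All comparisons with Col-0 rest on TMM scaling alone. Its factors were 0.76 to 0.78 for Col-0 and 0.99 to 1.01 for the triple mutant. In ein5-1 ski2-3 they were 1.42 for the summed replicates 1 and 2 and 1.29 for replicate 3.

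A fit with the replicate number as a block gave 1999 lower and 1057 higher genes and a TAS median of -5.44. No pairing by number was seen, as 0 of 18 same-numbered pairs had a residual correlation above 0.1. Many genes had low counts, so a weak pairing could be missed. Over all settings and omissions, 75 calls of 19 genes followed by name were lost. Sign changes were counted over the settings and only the lowest and highest omission of each named gene. In 26 of these values a named gene changed sign, and MIR396a and MIR393b were called genes among them. MIR159b was 0.021 with RLE and with DESeq2, 0.079 scaled to MIR genes, 0.094 with only the 2 genotypes and -0.18 to 0.50 in the omissions, the last without ein5-1 ski2-3 replicates 1 and 2. MIR173 was 0.016 with RLE and with DESeq2, 0.037 scaled to MIR genes, 0.088 with only the 2 genotypes and -0.14 to 0.13 in the omissions. LHB1B1 was 0.0083 with RLE, 0.0063 with DESeq2, 0.0196 scaled to MIR genes, 0.077 with only the 2 genotypes and -0.19 to 0.18 in the omissions. MIR161 was -0.39 with library totals and -0.015 without a filter. MIR166a was -0.44 with library totals, -0.072 without a filter, -0.043 with the minimum of 30, -0.068 with 12 separate libraries, -0.065 with the replicate block and -0.033 to 0.41 in the omissions. In the same omissions MIR396a ranged from -0.50 to 0.0088, MIR393b from -0.49 to 0.14 and LRX3 from -0.30 to 0.0023, each highest without ein5-1 ski2-3 replicates 1 and 2. The cause of these shifts was not tested.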

Other observations

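Some loci lost their small RNA in the triple mutant although rdr6-11 alone had it at full level; they were picked after their values were seen, as the genes down at least 16-fold whose mean in rdr6-11 was at or above that in ein5-1 ski2-3. AT3G44570 (chromosome 3, 16158405 to 16159835), annotated as a retrotransposon ORF-1 protein gene, had 0, 1.12 and 0.758 CPM in the triple mutant and 121 and 100 CPM in ein5-1 ski2-3. It averaged 203 CPM in rdr6-11 and 154 CPM in Col-0, so that 1 of the 4 genotypes stood apart from the other 3. Its neighbour AT3G44580, on the other strand, had 0, 0.746 and 0.379 CPM in the triple mutant and 76.7 and 62.7 CPM in ein5-1 ski2-3, with 134 CPM in rdr6-11 and 99.7 CPM in Col-0. AT2G14000 and AT3G30820, also annotated as retrotransposon ORF-1 protein genes, averaged 0.750 and 1.25 CPM in the triple mutant and 22.1 and 23.3 CPM in ein5-1 ski2-3. In rdr6-11 they averaged 40.3 and 43.8 CPM, and in Col-0 30.3 and 30.9 CPM. The 3 ORF-1 genes may share reads. The genome sequence of the triple mutant at these loci was not analysed here.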
